A study of Mus musculus with 39 samples.

Results

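The genes described here are 9 that write, copy, erase or protect cytosine methylation: Dnmt1, Dnmt3a, Dnmt3b, Uhrf1, Tet1, Tet2, Tet3, Trim28 and Zfp57. They were chosen by name for their roles, with earlier results of these data known, and are 9 of the 53379 genes that the count tables list. Their levels were measured by Smart-Seq2 RNA sequencing of small cell pools, which flow cytometry separated from mouse embryonic neocortex on embryonic days (E) 13 and E16. All embryos carried the Mosaic Analysis with Double Markers cassettes MADM-7-GT and MADM-7-TG on chromosome 7 together with Emx1-Cre, on a mixed C57BL/6J and CD1 background, and the labels name no further allele and no treatment. Emx1-Cre acts in progenitors of the dorsal forebrain, so that the sorted cells are those progenitors and the cells made from them. Red (tdT+) and green (GFP+) cells, called singly coloured here, hold both copies of chromosome 7 from one parent (uniparental disomy, UPD), and yellow (GFP+/tdT+) cells hold a maternal and a paternal copy and served as control. The labels give age, colour and replicate but not the parent, so patUPD was taken as red in replicates 1 to 3 and green from replicate 4 up, and matUPD as the other colour. The study's sample sheet gives the same direction for 39 of 39 libraries.

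Of the 39 libraries, 3 with 18.8% to 36.1% uniquely aligned reads (E13 yellow 3, E13 red 5 and E13 green 5) were left out, and the 36 kept had 50.5% to 66.0%. The kept libraries held 472924 to 5205788 counts in genes (median 3452734) and 7858 to 13768 detected genes. At E13 there were 5 patUPD, 5 matUPD and 5 control libraries from 6 embryos, and at E16 7 of each from 7 embryos. The study left out 4 more libraries (E13 yellow 2, E16 red 5, E16 red 6 and E16 yellow 7), and 5 kept libraries held at least 50 counts of both Xist and Y-linked genes, so values are also given without them where that moves a call or a direction. The markers of other cells were low in most libraries but not in all: summed haemoglobin and other blood genes ran from 0.220 to 53633 CPM (counts scaled to a common library total, as edgeR gives them) at E13 and from 0.468 to 7018 CPM at E16. The median blood sum at E13 was 1260 CPM in control and 45.9 CPM in singly coloured cells. Microglial genes had a median sum of 0 CPM at both ages. Neuronal and radial glial markers were present in every library, from 1028 to 4227 CPM at E13 and 230 to 3946 CPM at E16 for the summed radial glial genes.

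Methylation of CpG dinucleotides is set on unmethylated DNA by the de novo enzymes Dnmt3a and Dnmt3b. It is copied onto the new strand after replication by Dnmt1, which Uhrf1 brings to hemimethylated sites, and the Tet enzymes oxidise 5-methylcytosine as a first step of its removal. At imprinted loci the methylated parental copy is protected by the zinc finger protein Zfp57, which binds it and recruits Trim28 (KAP1), a scaffold for histone methylation and silencing. In the developing cortex Dnmt1 is known as the maintenance enzyme of dividing progenitors, and Dnmt3a as the main de novo enzyme of neural cells.

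All genes lie outside chromosome 7 except Trim28, at chr7:12999114-13031035 on the plus strand (GRCm38, Gencode M21), so Trim28 alone could be carried as copies of a single parental origin. Dnmt3a lies at chr12:3806007-3914443 on the plus strand and Uhrf1 at chr17:56303321-56323486 on the plus strand. Dnmt1 lies at chr9:20907209-20959888 on the minus strand. Counts were not split by strand, and 133 of the 16642 exon bases of Dnmt3a (0.799%) are shared with an antisense transcript, Dnmt3aos. A count is a sum over all transcripts of a gene, so the transcripts that begin at the separate starts of Dnmt3a, Dnmt1, Uhrf1 and Zfp57 were not told apart.

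The promoters of 3 genes are shown, because Dnmt3a carried the clearest change with age, Uhrf1 the largest fitted one, and Trim28 lies on the disomic chromosome. Each stretch is the 250 bases before an annotated start (RefSeq, GRCm38.p6), 5′ to 3′ on the strand of the gene. The stretch of Uhrf1 is chr17:56304063-56304312, and its capitals mark an octamer of the consensus that E2F factors, regulators of replication genes, bind.
Uhrf1: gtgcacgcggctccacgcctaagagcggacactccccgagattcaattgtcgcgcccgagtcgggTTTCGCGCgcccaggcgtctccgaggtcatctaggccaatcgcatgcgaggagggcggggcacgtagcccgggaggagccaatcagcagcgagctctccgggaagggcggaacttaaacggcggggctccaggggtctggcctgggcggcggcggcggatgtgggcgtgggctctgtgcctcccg
The octamers searched on both strands were TTTCCCGC, TTTCGCGC, TTTGCCGC and TTTGGCGC, and the match of Uhrf1 began 185 bases before the start. Dnmt1 held a match, GCGCGAAA, on the other strand 219 bases before the start of its most CpG-rich window. Of the 250 bases of that window 166 lie in annotated exons, so it is not all upstream of transcribed sequence. The stretches printed here hold 0 exon bases, but each lies inside the annotated span of its gene, after the first base of that span. They are therefore not upstream of every annotated transcript of these genes. These 2 of the 9 genes had a match, as did 5 of 22 S phase genes with a promoter entry and 583 of 27025 genes in all (2.16%), or 1.86% of 32851 windows. A match is a description of these letters and not a bound site.

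In the other stretches the capitals mark CpG dinucleotides, the sites that the Dnmt enzymes methylate. That of Dnmt3a is chr12:3806730-3806979 and that of Trim28 chr7:13023902-13024151.
Dnmt3a: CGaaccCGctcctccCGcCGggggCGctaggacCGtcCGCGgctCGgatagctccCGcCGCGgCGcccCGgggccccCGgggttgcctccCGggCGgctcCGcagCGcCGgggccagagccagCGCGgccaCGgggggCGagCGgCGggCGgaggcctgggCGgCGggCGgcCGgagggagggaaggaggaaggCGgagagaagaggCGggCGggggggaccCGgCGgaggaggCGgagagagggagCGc
Trim28: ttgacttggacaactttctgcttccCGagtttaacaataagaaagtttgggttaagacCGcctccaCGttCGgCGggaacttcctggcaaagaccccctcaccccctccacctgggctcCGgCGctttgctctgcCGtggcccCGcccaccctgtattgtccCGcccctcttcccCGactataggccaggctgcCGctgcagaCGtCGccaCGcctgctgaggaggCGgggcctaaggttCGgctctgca
The stretch of Dnmt3a holds 38 CpGs, that of Uhrf1 30 and that of Trim28 17, beside a median of 6 over the 32851 windows. The windows of other annotated starts hold 40 and 15 CpGs for Dnmt3a, and 10 with no octamer for Uhrf1. The windows of Zfp57 hold 7, 6 and 3 CpGs. No methylation was measured in these samples.

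Trim28 and Dnmt1 were the most abundant of the 9 genes, and Zfp57 was nearly absent. Per kilobase of exon, the mean over the 36 libraries was 187 CPM for Trim28, 63.2 for Dnmt1, 18.1 for Uhrf1, 15.6 for Dnmt3a and 5.27 for Tet3. On the same scale Tet2 stood at 1.32, Tet1 at 0.772, Dnmt3b at 0.551 and Zfp57 at 0.209. Ranges over the libraries overlapped between Uhrf1 and Dnmt3a, between Uhrf1 and Dnmt1, and among Tet2, Tet1, Dnmt3b and Zfp57. The order of Uhrf1 and Dnmt3a depended on the measure. Their median CPM over the 36 libraries, not divided by exon length, was 29.4 for Uhrf1 and 178 for Dnmt3a. The lowest library of Trim28, at 54.5 CPM per kilobase, stood above the highest of Tet3, at 12.1.

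**Figure D1:**
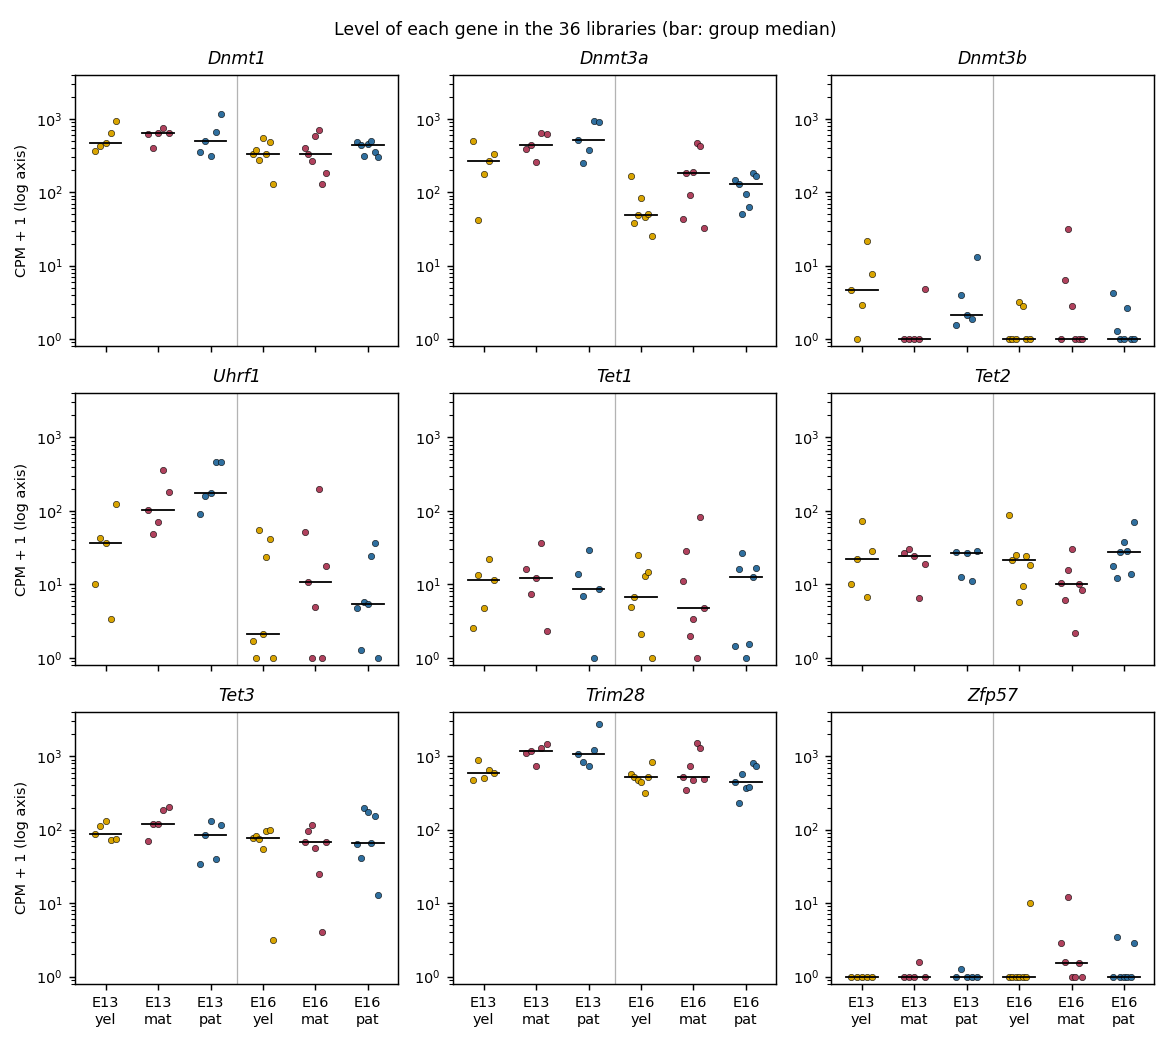
Level of each of the 9 genes in the 36 libraries, as CPM + 1 on a log axis, by age and by control (yel), matUPD (mat) and patUPD (pat) cells; a point is 1 library and a bar the group median. Trim28 and Dnmt1 lie above 100 CPM in every library, Zfp57 is at 0 counts in 27 of 36, and Uhrf1 and Dnmt3a spread over more than a decade within an age.

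Zfp57, which reads the methylated imprint, had more than 3 counts in 4 of the 36 libraries, all at E16, and 0 counts in 27. The 4 libraries were E16 green 3 with 45 counts, E16 yellow 7 with 26, E16 red 2 with 9 and E16 green 7 with 8. The 15 libraries at E13 held at most 2 counts each, under the floor of 3 counts, so expression at E13 was not detectable at this depth. Its mean count was under 10 and it was not tested in any comparison. Zfp445, the other zinc finger protein known to protect imprints, was detected in every library, at 29.3 ± 27.2 CPM (SD, n = 10) in singly coloured and 13.4 ± 4.65 CPM (n = 5) in control cells at E13. At E16 it stood at 37.4 ± 29.2 CPM (n = 14) and 45.3 ± 55.6 CPM (n = 7).

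The Tet enzymes differed in level among themselves. Tet3 was found in all 36 libraries, from 2.12 to 202 CPM, and Tet2 in all, from 1.21 to 87.2 CPM. Tet1 was at 0 counts in 4 libraries and reached 81.5 CPM in E16 red 6. Dnmt3b, the other de novo enzyme, was at 0 counts in 18 libraries, 13 of them at E16, and its highest level was 30.4 CPM in E16 green 3.

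The first comparison asked how these genes differ between E13 and E16. Counts of the kept libraries of an embryo were summed, so that 6 embryos stood against 7, and genes with a mean count of at least 10 were tested with edgeR's quasi-likelihood test and Benjamini-Hochberg adjustment. Dnmt3a fell, and none of the 7 other genes tested passed the threshold of an adjusted p of 0.05. Of the 13776 genes tested, 524 passed (3.8%), 265 of them higher (1.92%) and 259 lower (1.88%) at E16. Of the 8 members tested, 1 passed and 3 had an unadjusted p under 0.05, beside 19.3% of all genes.

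Dnmt3a ran from 265 to 624 CPM over the E13 embryos (median 416) and from 66.1 to 211 CPM over the E16 embryos (median 133). No E16 embryo reached the lowest E13 embryo, which was so, in either direction, for 2.93% of the genes tested. The log2 fold change was -1.52 (SE 0.27), a level 2.87-fold lower (95% interval 1.93 to 4.26), with an adjusted p of 0.00446 by edgeR. It was -2.01 (SE 0.57) in yellow libraries alone, -1.25 (SE 0.55) in red and -2.27 (SE 0.42) in green, and the adjusted p was 0.244, 0.364 and 0.0137 in these edgeR fits. In replicates 1 to 3 alone it was -1.67 (SE 0.37, adjusted p = 0.0741 by edgeR), and in replicates 4 and up alone -1.49 (SE 0.36, adjusted p = 0.144). Without the 4 further libraries that the study left out it was -1.84 (SE 0.27).

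Uhrf1 had the largest fitted difference and a wide error. It ran from 2.37 to 257 CPM over the E13 embryos (median 119) and from 1.22 to 63.7 CPM over the E16 embryos (median 12.97). The lowest E13 value was replicate 5, for which only control cells were kept, and the other E13 embryos lay between 61.9 and 257 CPM, with 1 E16 embryo, replicate 5, above the lowest of them. The log2 fold change was -2.69 (SE 0.87, 95% interval -4.53 to -0.85), with an adjusted p of 0.0914 by edgeR. Uhrf1 passed without E13 replicate 5 (-2.95, adjusted p = 0.0425), without E16 replicate 5 (-3.51, 0.0403), without the 4 further libraries (-3.17, 0.0264), with all 39 libraries (-2.96, 0.0366) and by DESeq2 (-2.71, 0.0363).

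Dnmt1, the maintenance enzyme, ran from 402 to 945 CPM over the E13 embryos and from 234 to 558 CPM over the E16 embryos. The groups overlapped, and the log2 fold change was -0.50 (SE 0.24, adjusted p = 0.264 by edgeR). Trim28 ran from 658 to 1601 CPM at E13 and from 296 to 858 CPM at E16, with a log2 fold change of -0.60 (SE 0.24, adjusted p = 0.176 by edgeR). A fit of single libraries with the embryo as a random effect (limma-voom) called both, with adjusted p of 0.0433 for Dnmt1 and 0.00474 for Trim28, beside Dnmt3a and Uhrf1. The share of all genes that this fit called is not reported here, so its calls are not a result about the members. The fitted log2 difference was -0.48 (SE 0.38) for Tet3, 0.26 (SE 0.50) for Tet2, -0.10 (SE 0.68) for Tet1 and -1.05 (SE 1.32) for Dnmt3b, with adjusted p of 0.540 to 0.961 by edgeR. The sign of each of these 4 depended on the libraries used, as given in the closing part.

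**Figure D2:**
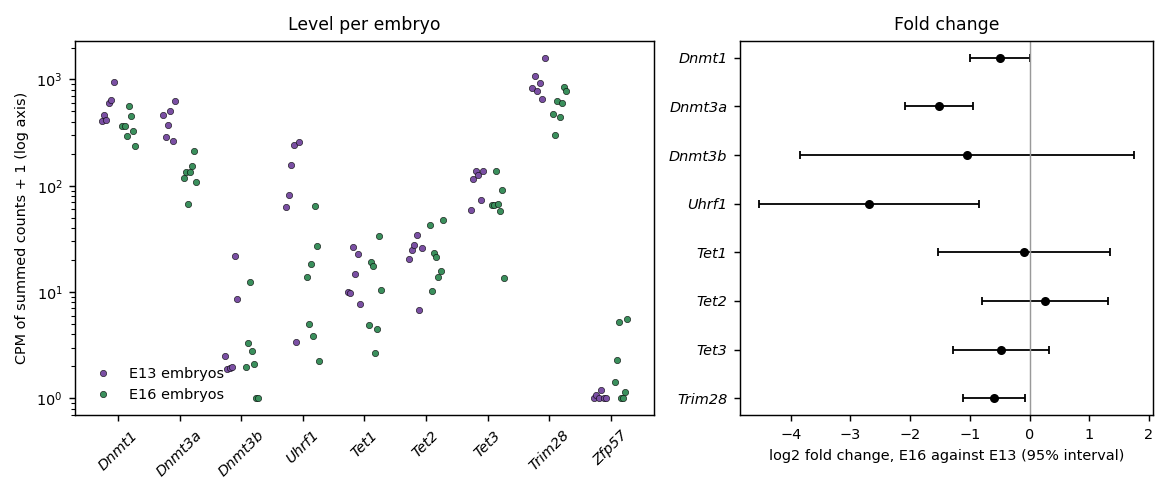
Left, CPM of the summed counts of each embryo + 1 on a log axis, for 6 embryos at E13 and 7 at E16; right, the edgeR log2 fold change of the 8 genes tested with its 95% interval. The embryos of the 2 ages do not overlap for Dnmt3a, and the interval of Dnmt3a runs from -2.09 to -0.95.

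The genes that work beside these enzymes are described by list. Of 18 tested partners of methylation and demethylation, 2 fell: Gadd45g, a stress protein linked to demethylation and a marker of cells that leave the cycle, also in the list of intermediate progenitors (log2 -2.15, SE 0.32, adjusted p = 0.00112 by edgeR), and Cxxc4, a CpG-binding protein that lowers Tet2 (-2.28, SE 0.61, adjusted p = 0.0471). The median of this list was -0.34, beside 0.03 over all genes tested. None of 10 tested genes of the reader list, drawn from families with members that bind methylated DNA, passed, with a median of 0.25. Among the abundant genes of that list Mbd3, a subunit of a chromatin remodelling complex, stood at 0.06 (SE 0.37). None of 25 tested partners in imprint maintenance passed, with a median of 0.08. The most abundant were Atf7ip, a cofactor of the histone methyltransferase Setdb1 (-0.57, SE 0.23), and the heterochromatin protein Cbx5 (-0.48, SE 0.18), and Zfp445 stood at 0.90 (SE 0.52).

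Markers of dividing cells and of neurons differed between the ages in the same libraries. Of 26 S phase genes 15 fell and none rose (median -2.04), among them Cdc45 (-3.96, SE 0.53), Mcm2 (-2.35, SE 0.32), Tyms (-1.65, SE 0.23) and Rrm2 (-2.32, SE 0.34), all parts of replication or nucleotide supply. Of 18 G2 and M phase genes 9 fell (median -1.94), and of 12 radial glial genes 6 fell (median -1.75), such as Nes (-4.30, SE 0.64) and Vim (-1.54, SE 0.25). The fitted difference of 2 radial glial genes was positive, Slc1a3 at 1.13 (SE 0.39, adjusted p = 0.109 by edgeR) and Fabp7 at 0.86 (SE 0.35, adjusted p = 0.179). Of 16 neuronal genes 7 rose, such as Mapt (1.64, SE 0.21), and 1 fell, the deep-layer factor Tbr1 (-0.86, SE 0.23). The summed S phase level was 1013 to 7341 CPM at E13 and 214 to 1754 CPM at E16, and the summed neuronal level 4237 to 10857 and 7672 to 17939 CPM. Markers of other cells differed as well. All 4 tested genes of Cajal-Retzius cells had a negative fitted difference (median -3.52), with Ebf3 called, and so had all 4 tested interneuron genes (median -4.29), with none called. Col3a1, a collagen of the endothelial and mesenchymal list, Pdgfra, a marker of oligodendrocyte precursors, and the embryonic haemoglobin Hbb-y were called lower, and Aldh1l1, an astrocyte marker, higher. Of the 4 tested genes of the oligodendrocyte and astrocyte list 2 had a positive fitted difference, Aldh1l1 and Olig1 (5.82, SE 2.29, adjusted p = 0.159 by edgeR). Cspg4 was negative, as was Pdgfra (-3.12, SE 1.68, for Cspg4), and Olig2 and Sox10 were too low to be tested. Col3a1 was at 0 counts in all 21 libraries at E16 and Pdgfra in 20. The summed Cajal-Retzius level was 19.9 to 744 CPM at E13 and 0 to 211 CPM at E16. The part of these differences in the fall of Dnmt3a was not tested, and in pooled cells fewer cells of a type and less RNA per cell cannot be told apart.

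Levels of the members followed the S phase genes to different degrees across the 36 libraries. These correlations are descriptions, since libraries share embryos and differ in depth. Between the log2 level of a gene and the log2 sum of the 26 S phase genes, Pearson's r was 0.78 for Dnmt3a, 0.73 for Uhrf1, 0.67 for Dnmt1, 0.48 for Trim28, 0.41 for Tet3, 0.21 for Dnmt3b, 0.12 for Tet1, 0.02 for Tet2 and -0.51 for Zfp57, which was at 0 counts in most libraries. Spearman's rho was 0.75 for Dnmt3a, 0.70 for Uhrf1 and 0.61 for Dnmt1. Within an age, Pearson's r of Dnmt3a was 0.86 over the 15 libraries at E13 and 0.36 over the 21 at E16, and that of Uhrf1 0.64 and 0.39. For Dnmt1 the values were 0.47 and 0.56, and for Trim28 they had opposite signs, 0.58 at E13 and -0.24 at E16. The S phase list was not the closest for every member. Over the 36 libraries, r with the log2 sum of the 18 G2 and M phase genes was higher for Dnmt3a (0.84) and Trim28 (0.59). It was lower for Uhrf1 (0.71) and Dnmt1 (0.55).

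**Figure D3:**
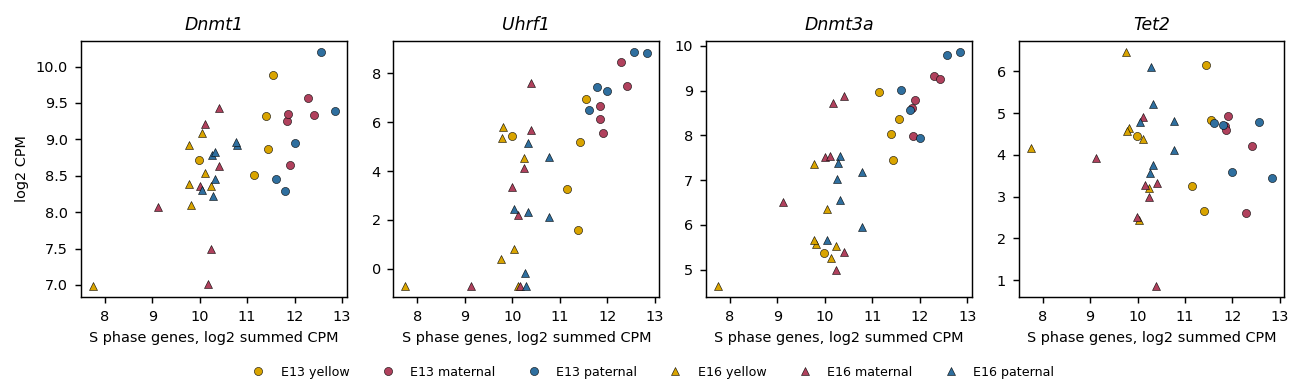
Log2 CPM of Dnmt1, Uhrf1, Dnmt3a and Tet2 (y axes) against the log2 summed CPM of 26 S phase genes (x axes) in the 36 libraries; circles are E13, triangles E16, and colours mark control, matUPD and patUPD cells. Dnmt3a rises with the S phase sum over all libraries (Pearson's r 0.78), and Tet2 shows no such slope (0.02).

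The genes whose levels were most like a member's, among 5506 genes with a mean count of at least 100, are given as descriptions. For Dnmt1 they were Pcna (Pearson's r 0.780), Cdk1 (0.777) and Mcm2 (0.775), a replication clamp, the mitotic kinase and a replication helicase subunit. For Uhrf1 they were Wee1 (0.800), a kinase that holds cells before mitosis, Shisa2 (0.778) and Grb10 (0.769), and for Dnmt3a H2afv (0.825), a histone variant, Eno1 (0.822), a glycolytic enzyme, and Nap1l1 (0.791), a histone chaperone. For Trim28 they were the RNA-binding proteins Hnrnpl (0.830) and Hnrnpu (0.743) and the cortical progenitor factor Lhx2 (0.756). For Tet3 they were Ipo11 (0.855), Ddah1 (0.831) and Rrp15 (0.827). The closest genes of the low members had lower values: Anapc4 (0.674), Cul3 (0.625) and Hook3 (0.591) for Tet2, Rpap3 (0.673), Pithd1 (0.654) and Tollip (0.626) for Tet1, Gpm6b (0.560) and Ivns1abp (0.534) among those for Zfp57, and Rdm1 (0.502), Zfp467 (0.484) and Bnip1 (0.481) for Dnmt3b. Among the 9 genes themselves the largest values of r were 0.62 between Dnmt3a and Trim28 and 0.58 between Dnmt1 and Uhrf1.

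The second comparison asked whether singly coloured cells, taken as the mean of patUPD and matUPD, differ from the control cells of the same embryo. No member passed the threshold at E13, at E16 or over both ages. At E13 0 of 11786 genes passed by edgeR (0%), 801 had an unadjusted p under 0.05 (6.8%), and DESeq2 called 562. Of the 8 members tested, 3 had an unadjusted p under 0.05 and the same 3 were called by DESeq2: Uhrf1, Trim28 and Dnmt3a. At E16 0 of 10794 genes passed (0%), 258 had an unadjusted p under 0.05 (2.39%), Dnmt3a among them, and DESeq2 called 73 genes and 0 members. Over both ages 13 of 11472 passed (0.113%) and 741 had an unadjusted p under 0.05 (6.46%), Dnmt3a and Trim28 among them.

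Uhrf1 at E13 was at 90.9, 157, 172, 458 and 465 CPM in patUPD cells and at 47.0, 70.2, 102, 178 and 359 CPM in matUPD cells. In control cells it was at 2.35, 9.01, 35.5, 42.2 and 123 CPM. Control cells lay below both other colours in each of the 4 embryos that had all 3, and the groups overlapped across embryos. A mean of the singly coloured cells above the control in every embryo was shared by 7.1% of the genes tested. The log2 difference was 2.16 (SE 0.57, 95% interval 0.93 to 3.38), with an unadjusted p that ranked 61 of 11786 and an adjusted p of 0.403 by edgeR and 0.00192 by DESeq2. At E16 it was 1.53 (SE 1.59), with 3 of 14 singly coloured and 2 of 7 control libraries at 0 counts.

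Dnmt3a at E13 was at 247, 379, 516, 896 and 926 CPM in patUPD cells and at 254, 391, 444, 610 and 638 CPM in matUPD cells. In control cells it was at 41.2, 173, 263, 332 and 501 CPM. At E13 the mean of the singly coloured cells was higher in 3 of 4 embryos. At E16 it was higher in 6 of 7, and replicate 1 was the exception at each age. The log2 difference was 1.38 (SE 0.47) at E13 and 1.24 (SE 0.55) at E16, and 1.31 (SE 0.40) over both ages, with adjusted p of 0.628, 1 and 0.378 by edgeR and 0.0279, 0.400 and 0.00794 by DESeq2. Without the 4 further libraries that the study left out it was 0.92 (SE 0.40) at E13 and 0.66 (SE 0.45) at E16.

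Trim28 at E13 was at 745, 838, 1074, 1232 and 2703 CPM in patUPD cells and at 737, 1111, 1173, 1276 and 1469 CPM in matUPD cells. In control cells it was at 475, 506, 588, 653 and 899 CPM. Singly coloured cells were higher on average in 4 of 4 embryos, by 0.14 to 1.76 on the log2 scale, a pattern shared by 7.1% of the genes tested. The lowest singly coloured library lay below the highest control. The log2 difference was 1.07 (SE 0.28, adjusted p = 0.402 by edgeR and 0.0177 by DESeq2) at E13 and 0.11 (SE 0.28, adjusted p = 1 by edgeR) at E16, where 3 of 7 embryos were higher. Without the 4 libraries that the study left out it was 1.39 (SE 0.23, adjusted p = 0.0839 by edgeR) at E13. The change of the difference from E13 to E16 was -0.96 (SE 0.42), with an adjusted p of 1 by edgeR. In that fit 1 of 11472 genes passed (0.00872%), and 4.01% had an unadjusted p under 0.05.

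For Dnmt1 the values lay closer together. Its log2 difference was 0.24 (SE 0.29, 95% interval -0.38 to 0.86) at E13 and 0.11 (SE 0.28, -0.47 to 0.69) at E16. For Tet3 it was -0.18 (SE 0.48) and 0.23 (SE 0.70). Tet1, Tet2 and Dnmt3b had adjusted p of 0.933 or more by edgeR at both ages where tested.

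**Figure D4:**
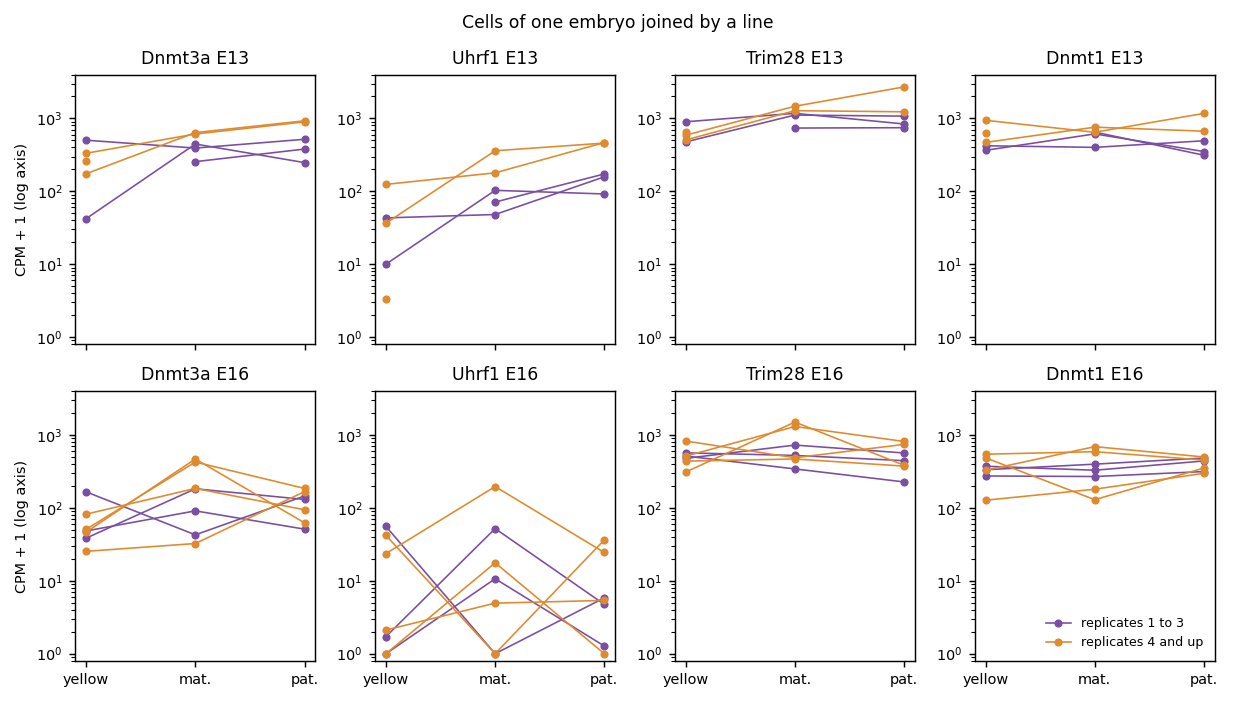
CPM + 1 on a log axis of Dnmt3a, Uhrf1, Trim28 and Dnmt1 in control (yellow), matUPD (mat.) and patUPD (pat.) cells, with cells of an embryo joined by a line; the line colours mark replicates 1 to 3 and replicates 4 and up. At E13 the control cells are the lowest of their embryo for Uhrf1 in 4 of 4 embryos with all 3 colours, and at E16 the lines of Uhrf1 cross.

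The marker lists moved with this comparison too. At E13 the summed neuronal level was 8809 to 10857 CPM in control and 4237 to 6886 CPM in singly coloured cells, and the summed S phase level 1013 to 3000 and 3130 to 7341 CPM, without overlap in either list. At E16 the ranges were 7672 to 12945 and 9204 to 17939 CPM for neuronal genes and 214 to 1205 and 556 to 1754 CPM for S phase genes, with overlap. No gene of these lists passed at either age alone, and over both ages Vim rose (log2 1.34, SE 0.23, adjusted p = 0.00827 by edgeR) and Stmn2, a neuronal microtubule protein, fell (-0.75, SE 0.12, adjusted p = 0.00751). At E13 24 of 25 S phase genes tested had a positive fitted difference, with a median of 1.26, and 1 of 16 neuronal genes, with a median of -0.80, beside -0.11 over all genes. The G2 and M phase sum was 270 to 1566 CPM in control and 1778 to 4088 CPM in singly coloured cells, and the radial glial sum 1028 to 1838 and 2166 to 4227 CPM, also without overlap. The Cajal-Retzius sum was 238 to 528 CPM in control cells (median 429) and 19.9 to 744 CPM in singly coloured cells (median 112), and all its tested genes had a negative fitted difference, 4 at E13 (median -2.45) and 3 at E16 (median -3.26). Summed microglial genes reached 190 CPM in control cells at E13 (median 31.4) and at most 16.9 CPM in singly coloured cells. Blood genes at E13 summed to 0.671 to 49082 CPM in control cells (median 1260) and 0.220 to 53633 CPM in singly coloured cells (median 45.9). The endothelial sum at E13 had a median of 4.70 CPM in control and 102 CPM in singly coloured cells, with overlapping ranges. The part of these lists in the values of Uhrf1, Dnmt3a and Trim28 was not tested. Of the partner lists, 9 of 17 methylation partners, 2 of 10 readers and 16 of 25 imprint partners tested had a positive fitted difference at E13, and none passed.

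The third comparison asked whether the genes differ between patUPD and matUPD cells. The direction was checked first with imprinted genes of chromosome 7. Cdkn1c, expressed from the maternal copy, was lower in patUPD than in matUPD cells in 12 of 12 embryos, and 6 of 10 tested genes of the paternally expressed list rose in patUPD cells over both ages, such as Snrpn (log2 3.67, SE 0.35) and Ndn (3.92, SE 0.49). These genes are the known readout of the direction and make 7 with Cdkn1c of the 7 of 11472 genes called over both ages (0.061%). At E13 0 of 11786 genes passed by edgeR (0%), with 264 at an unadjusted p under 0.05 (2.24%) and 202 by DESeq2, and at E16 3 of 10794 (0.0278%), with 2.31% at an unadjusted p under 0.05. That share was 2.58% over both ages. In the change between ages 0 of 11472 genes passed by edgeR (0%), 291 had an unadjusted p under 0.05 (2.54%) and DESeq2 called 207.

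No member passed at either age, over both ages or in the change between ages, by edgeR or by DESeq2, and 1 had an unadjusted p under 0.05 in any of these, Uhrf1 in the change between ages (-3.92, SE 1.84). Trim28, the one member on the disomic chromosome, differed by 0.08 (SE 0.27, 95% interval -0.51 to 0.66) at E13 and by -0.55 (SE 0.32, -1.22 to 0.12) at E16 on the log2 scale, patUPD against matUPD. At E16 it was lower in patUPD than in matUPD cells in 6 of 7 embryos, and the matUPD libraries E16 red 5 (1505 CPM) and E16 red 6 (1309 CPM), both left out by the study, were its highest of that age. Over both ages the difference was -0.24 (SE 0.22).

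For the copying and de novo enzymes the intervals were wide. Dnmt3b at E13 was at 0.546, 0.852, 1.12, 2.99 and 11.9 CPM in patUPD cells, which is 2 to 48 counts, and at 0 in 4 matUPD libraries and 3.74 CPM in the fifth. It was higher in patUPD cells in 5 of 5 embryos, a pattern shared by 2.38% of the genes tested, and 2 of the 5 patUPD libraries held 2 counts, under the floor of 3. Its log2 difference was 3.87 (SE 2.09, 95% interval -0.66 to 8.40), with an unadjusted p of 0.088 and an adjusted p of 1 by edgeR, and at E16 its mean count was under 10 and it was not tested. Dnmt1 differed by -0.23 (SE 0.30, 95% interval -0.88 to 0.42) at E13 and by 0.28 (SE 0.32, -0.38 to 0.94) at E16. Dnmt3a differed by 0.15 (SE 0.44) and -0.53 (SE 0.62), and the second value was 0.20 (SE 0.54) without the libraries the study left out. Uhrf1 differed by 0.75 (SE 0.52) at E13 and by -3.31 (SE 1.78) at E16, where 195.5 CPM in E16 red 5 faced 51.1 CPM or less in the other matUPD libraries and 0 to 35.4 CPM in patUPD cells. Within embryos at E16 Uhrf1 had no common direction. It was higher in patUPD cells in 3 of 7 embryos, with log2 differences from -4.81 to 5.87. Tet3 differed by -0.86 (SE 0.50) and 0.36 (SE 0.86), and Tet1 by -0.50 (SE 1.76) and -0.87 (SE 1.57). The adjusted p was 1 by edgeR for each of these values.

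Tet2 was at 11.3 to 68.8 CPM in patUPD cells (median 27.0) and at 1.21 to 29.4 CPM in matUPD cells (median 9.17) at E16. It was higher in patUPD cells in 7 of 7 embryos, a pattern shared by 0.843% of the 10794 genes, with overlapping groups. The log2 difference was 1.61 (SE 0.91) with an adjusted p of 1 by edgeR, and at E13 it was -0.08 (SE 0.99), with 4 of 5 embryos higher. The matUPD library E16 red 5 held 3 counts of Tet2. Among the partner lists 0 of 17 methylation partners, 0 of 10 readers and 0 of 25 imprint partners tested passed at E13, and 0 of 18, 0 of 10 and 0 of 23 at E16.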

How the data were processed

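RNA from sorted cell pools was sequenced by the authors in 39 libraries. Per the labels and the study's methods, technical replicates were combined (SAMtools 1.8, bedtools 2.26.0), reads were aligned with STAR 2.5.0c to GRCm38 with Gencode annotation keeping unique alignments, and the authors deposited whole-number counts per gene, not normalised. Column 2 (unstranded) was used, and reads that overlap more than 1 gene are not in these counts. The library method has no molecular identifiers, so the floor of 3 counts covers counting error only. Of the genes listed, 53274 matched Gencode M21, the source of symbols and coordinates.

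Libraries with at least 40% uniquely aligned reads and genes with a mean count of at least 10 were kept. edgeR 4.0.16 in R 4.3.3 (quasi-likelihood, TMM) was the main test, with an adjusted p under 0.05. Ages were compared on counts summed per embryo, and colours and UPD directions with the embryo as a block. The study states that individuals were replicates, and same-numbered libraries were taken as 1 embryo. Deviations from group means correlated at a median of 0.074 within and -0.019 between embryos at E13, and 0.059 and 0.0020 at E16. Pairs of libraries ran from 0.021 to 0.111 within and from -0.112 to 0.088 between embryos at E13. At E16 they ran from -0.055 to 0.150 and from -0.198 to 0.148. The ranges overlap, so these correlations do not settle the pairing. CPM were scaled with TMM, and for embryos by total counts. DESeq2 1.42.0, limma 3.58.1, other filters, library sets and left-out replicates were alternatives. Scripts were tested on simulated data.

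The members, gene lists and comparisons were chosen with earlier results of these data known. Members are named in each comparison that tested them. Of each other list at most 4 genes past the threshold with the smallest p are named, or, where none passed, at most 2 with the highest level. For likeness the 3 genes with the highest Pearson's r were taken. Zfp445, Tbr1 and, in the comparison of yellow cells, single lists' counts were described after their values were seen. E13 and E16 embryos differ in litter as well as age, and these cannot be told apart. Values of some genes that these rules name are not reported here.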

Additional observations from a re-analysis of the deposited data

Results flagged for a closer look

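Of 53 groups of 5 or 7 libraries examined, 12 held 1 library far from the others by Dixon's criterion at the 95% level. The criterion's rate of about 1 in 20 holds for normally distributed values. CPM are skewed, and many libraries of Zfp57 and Dnmt3b are at 0, so the 12 flags cannot be set against that rate. Each flagged library was the highest of its group. Trim28 stood at 2703 CPM in E13 patUPD replicate 6, beside 745 to 1232 CPM in the other 4 libraries of its group. Dnmt3a (165 CPM, others 24.4 to 81.2) and Tet2 (87.16 CPM, others 4.82 to 24.5) stood apart in the same library, E16 yellow 1. Uhrf1 reached 195.5 CPM in E16 matUPD replicate 5 (others 0 to 51.1), and Tet1 81.48 CPM in E16 matUPD replicate 6 (others 0 to 27.0), both libraries that the study left out. Dnmt3b reached 30.39 CPM and Zfp57 11.21 CPM in E16 matUPD replicate 3, beside at most 5.41 and 1.87 CPM in the others of that group. Dnmt3b also stood apart in E13 replicate 6, at 11.94 CPM in patUPD cells (others 0.546 to 2.99) and at 3.744 CPM in matUPD cells (others 0). Zfp57 stood at 9.19 CPM (26 counts) in E16 yellow 7, beside 0 in the other control libraries of that age. Its flags at E13 rest on 1 count in patUPD replicate 2 (0.2718 CPM) and 2 counts in matUPD replicate 4 (0.5736 CPM), both under the floor of 3 counts.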

How the results depend on the processing

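The limits lie in depth and number: Zfp57 and Dnmt3b had 3 or fewer counts in 32 and 21 of 36 libraries, and E13 had 4 embryos with all 3 colours. Of 840 alternative fold changes of members over 29 settings, 395 that left out 1 embryo and 378 others stayed on the same side of 0 and of the cutoff, and no value that reversed had an adjusted p under 0.561. Between E13 and E16, 2 members passed by DESeq2, with all 39 libraries and without the 4 further libraries, 4 by limma-voom, and 0 in yellow libraries alone, in red libraries alone, in replicates 1 to 3 (Dnmt3a -1.67, adjusted p = 0.0741 by edgeR) and in replicates 4 and up (-1.49, adjusted p = 0.144), fits with fewer samples of which the last 2 were added after the data were seen. Leaving out 1 embryo gave 1 to 2 members, with Uhrf1 the second without E13 or E16 replicate 5, and Dnmt3a kept an adjusted p of 0.0142 or less by edgeR. Against yellow cells DESeq2 called 3 members at E13 and 1 over both ages. Beyond the DESeq2 counts given above, the share of all genes called in these alternatives is not reported here. Their counts of members are therefore not a result about the members. Without the embryo as a block (no replicate block), 0 members passed in any comparison of colours, as with it. The following log2 values reversed. For age they were -0.0067 (yellow), -0.23 (red) and -0.19 (limma-voom) for Tet2, 0.10 (red), 0.23 (green) and 0.48 (embryos with all colours) for Tet1, 1.12 (green) and 2.21 (replicates 1 to 3) for Dnmt3b, and 0.12 (green) for Tet3. Against yellow cells they were 0.14 (no replicate block) and 0.18 (cross direction as block) for Tet3 at E13, and at E16 -0.024 (without the 4 libraries) and -0.17 (without libraries holding both Xist and Y-linked counts) for Trim28 and -0.17 (cross block) for Uhrf1. For patUPD against matUPD at E13 they were, with all 39 libraries, -0.53 for Dnmt3a, -0.23 for Uhrf1, -0.51 for Trim28 and 0.27 for Tet1, and -0.083 for Trim28 without the libraries holding both, and 0.13 for Tet2 with reporter colour as a term. At E16 they were 0.20 for Dnmt3a and -0.16 for Tet3 without the 4, and -0.059 for Dnmt1 without those holding both. Over both ages Dnmt1 gave -0.20 (all 39), -0.0051 (without the 4), -0.26 (without those holding both) and -0.019 (cross block), and Dnmt3a 0.21 (without the 4). Leaving out 1 embryo, the ranges that crossed 0 were, for age, -2.25 to 0.18 (Dnmt3b), -0.56 to 0.15 (Tet1) and -0.034 to 0.43 (Tet2). Against yellow cells they were -0.50 to 0.078 (Tet3, E13), and at E16 -0.0079 to 0.34 (Dnmt1), -0.14 to 0.55 (Tet3) and -0.078 to 0.31 (Trim28), and -1.49 to 0.13 for the change of Uhrf1 between ages. For patUPD against matUPD they were -0.16 to 0.20 (Trim28, E13), -1.10 to 0.62 (Tet1, E13), -0.27 to 0.33 (Tet2, E13), -0.12 to 1.02 (Tet3, E16), and over both ages -0.12 to 0.13 (Dnmt1) and -0.42 to 0.049 (Dnmt3a). Dnmt3b fell under the filter at E13 without replicate 5 or replicate 6. The causes were not tested.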

Other observations

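Uhrf1 differed between the embryos of E13. Over the summed counts of an embryo it stood at 61.9, 81.3 and 156 CPM in replicates 1 to 3, and at 242, 2.37 and 257 CPM in replicates 4, 5 and 6, in which green cells are patUPD. Replicate 5, the lowest, is control cells only. In singly coloured cells Dnmt3a was at 247 to 516 CPM in replicates 1 to 3 and 610 to 926 CPM in replicates 4 and 6. These values were noticed in the data and were not tested.

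The levels of Dnmt3a and of the neuronal list ran in opposite directions at E13 and in the same direction at E16, as a description of libraries that share embryos. Pearson's r with the log2 sum of 16 neuronal genes was -0.49 over 15 libraries at E13 and 0.55 over 21 at E16. For the 18 G2 and M phase genes it was 0.85 and 0.59. For Trim28 and the neuronal list the values were -0.63 and 0.44, and for Uhrf1 -0.72 and 0.22.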
